A study of Mus musculus with 6 samples.

Results

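The Ly6 family surface proteins were followed here through 8 mouse genes, Ly6a, Ly6c1, Ly6c2, Ly6d, Ly6e, Ly6f, Ly6i and Ly6k, of 23359 gene symbols in the deposited expression table. All 8 symbols were found, each on a single row. The genes belong together by name and sequence, but the family was picked for description with its WT and NULL values already known, so it was in part chosen by the same contrast that is described below. For this reason the members' differences between genotypes are given as values with their spread, and no p-value of a member is used as support.

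Ly6 proteins are small surface proteins built around a cysteine-rich LU domain and, in most cases, tied to the outer membrane by a glycosylphosphatidylinositol (GPI) anchor in place of a membrane-spanning segment. Immunologists know them mainly as antibody targets that mark blood cell stages. Ly6a is the stem cell antigen Sca-1, Ly6c1 and Ly6c2 encode the Ly-6C antigen of monocytes and other cells, and Ly6d marks lymphoid progenitors that are committed to the B-cell path. Several members, Ly6a, Ly6c1, Ly6c2 and Ly6e among them, are known to respond to interferon.

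The libraries were poly(A) RNA from mouse bone marrow, 3 from Gab2 +/+ samples (WT A, B and C) and 3 from samples with both Gab2 alleles disrupted (Gab2 -/-, NULL A, B and C). GAB2 is a docking adaptor downstream of cytokine receptors and of BCR-ABL1, and the comparison asks how transcripts differ without it. The sources used here do not give strain, age, sex, any culture or treatment, or the way the allele was disrupted. The labels name no animals, so the spread between libraries may be technical. Values are FPKM, fragments scaled for transcript length and for sequencing depth, so that levels of different genes can be set side by side.

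Gab2 itself read 2.43 to 3.33 FPKM in WT and 0.123 to 0.203 FPKM in NULL, as the labels require. The libraries held roughly 17.99 M to 68.39 M fragments (M, mega), estimated from the steps between low values. Of the 9916 genes that averaged 1 FPKM or more, 65.3% passed limma's test at an adjusted p of 0.05, so a passing gene was the common case in this comparison. Over all tested genes the log2 change (NULL minus WT) had a median of -0.13 on the deposited scale. In these bulk samples more cells of a type and more RNA per cell cannot be told apart. The libraries were rich in B-lineage transcripts, with 8 of 8 B-cell markers at a mean of at least 1 FPKM, whereas 0 of 8 neutrophil markers reached that level and Elane, S100a8 and S100a9 were listed at 0 in every library, which is unusual for whole marrow.

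The members fall into close relatives and distant ones, which bears on how far their reads can be told apart. In coding sequence Ly6c1 and Ly6c2 were identical at 97.7% of aligned positions (384 of 393). Ly6a, Ly6f, Ly6i and the Ly6c genes matched each other at 76.6% to 86.3%, with Ly6a to Ly6i the closest after the Ly6c pair. Ly6d, Ly6e and Ly6k matched every other member at no more than 49.6%. The opening 120 bases of the coding sequences show the difference between a near copy and a relative. They come from GENCODE vM21 transcripts on GRCm38, and capitals mark bases that differ from Ly6c1.
Ly6c1: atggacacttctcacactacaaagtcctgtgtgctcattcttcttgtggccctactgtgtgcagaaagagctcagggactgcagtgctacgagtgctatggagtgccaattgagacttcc
Ly6c2: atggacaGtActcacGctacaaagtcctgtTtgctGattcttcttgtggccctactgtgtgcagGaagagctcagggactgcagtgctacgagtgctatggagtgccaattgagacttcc
Ly6f: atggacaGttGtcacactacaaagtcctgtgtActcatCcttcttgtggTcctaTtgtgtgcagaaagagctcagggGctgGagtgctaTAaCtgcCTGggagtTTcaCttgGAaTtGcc

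Over this stretch Ly6c2 differed from Ly6c1 at 6 bases and Ly6f at 21. Stretches of 100 bases, the length of a sequencing read per the labels, were then looked up in the transcripts of all other genes. Ly6d, Ly6e, Ly6f and Ly6i shared 0 such stretches with another gene. Ly6k shared 18.5% of its stretches, all with the predicted gene Gm17189. Ly6c2 shared 14.9%, all with Ly6c1, and Ly6c1 shared 10.1%, with Ly6c2 and Ly6a. Ly6a shared 1.45%, also with Ly6c1. The search asked for exact identity, so it counts fewer shared stretches than an aligner that tolerates mismatches. The values of Ly6c1 and Ly6c2 are therefore uncertain as a division between these genes.

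**Figure D1:**
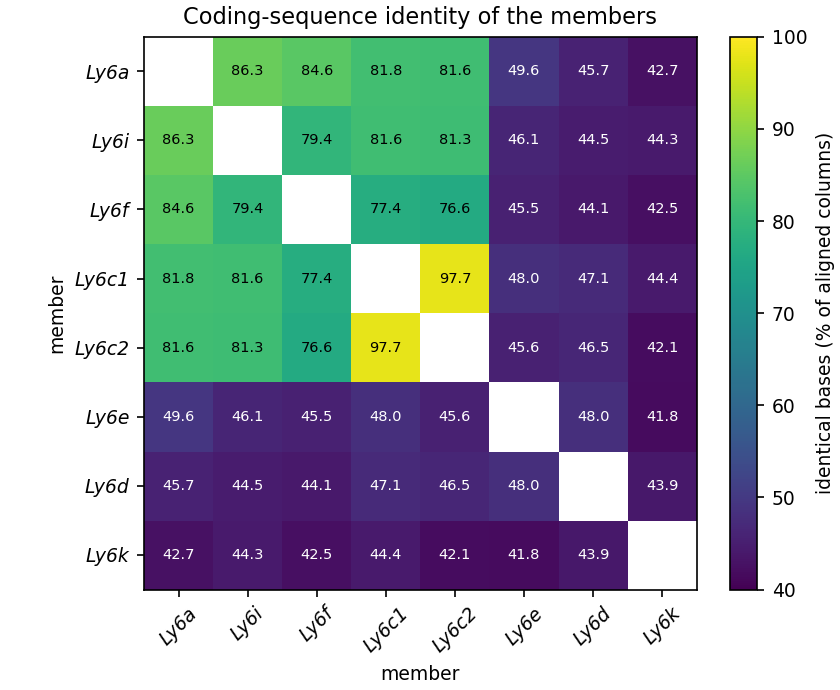
Identical bases between the coding sequences of each pair of members, in percent of aligned columns, with members on both axes. Ly6c1 and Ly6c2 stand out at 97.7%, Ly6a, Ly6i, Ly6f and the Ly6c genes form a block from 76.6% upward, and Ly6e, Ly6d and Ly6k lie below 50% against every member.

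In short, the marrow libraries contained much Ly6e and Ly6d, moderate Ly6a, and Ly6f chiefly in NULL, while the remaining 4 members were at or near 0. Of the 8 members 4 (Ly6a, Ly6d, Ly6e and Ly6f) reached a mean of 1 FPKM and were tested, each of them also with a WT mean above 1 FPKM. Of these, 3 passed the test as higher in NULL and 0 as lower, beside 23.3% of all tested genes that passed as higher. The same 3 had every NULL library above every WT library, beside 26.0% of all tested genes.

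Ly6d, the marker of B-cell-committed lymphoid progenitors, lies on the minus strand of chromosome 15 (chr15:74762056-74763620, GRCm38). It read 71.9, 97.1 and 80.6 FPKM in the WT libraries A, B and C, and 471, 402 and 409 FPKM in NULL A, B and C. The NULL libraries lay far above the WT libraries, and the lowest of them was several times the highest of WT. The mean went from 83.2 ± 12.8 to 427 ± 38.2 FPKM (SD, n = 3 each), a 5.13-fold ratio. On the log2(FPKM + 1) scale the change was 2.35 (SE 0.123), the 38th highest of 9916 when genes are ordered by change. Under every rescaling, filter, pseudocount and left-out library tried it stayed between 2.25 and 2.78. Markers of cells known to carry Ly6d moved in the same direction. The 8 B-cell markers summed to 2012 to 2210 FPKM in WT and 3022 to 3180 FPKM in NULL, and 8 markers of plasmacytoid dendritic cells, 3 of them at a mean of at least 1 FPKM, to 56.8 to 73.4 and 87.3 to 94.3 FPKM. Their part in the Ly6d difference was not tested.

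Ly6f, a close relative of Ly6a by sequence, lies at the far end of the cluster on the plus strand (chr15:75268421-75272235, GRCm38). It read 1.07, 1.80 and 0.312 FPKM in WT and 22.1, 21.8 and 22.8 FPKM in NULL. The NULL libraries were nearly level with each other, whereas the WT libraries were low and uneven, with WT C lowest. The mean went from 1.06 ± 0.745 to 22.2 ± 0.484 FPKM (SD, n = 3 each), which is a 20.9-fold ratio of means. Its log2 change of 3.56 (SE 0.239) was the 8th highest of 9916. At the estimated depth the WT values correspond to about 42.2, 23.6 and 5.10 fragments, so the level in WT, and with it the ratio, is known less well than the level in NULL. Without WT C the log2 change was 3.27. Because the WT level is near the pseudocount, the log2 change was 2.17 with a pseudocount of 5 FPKM and 4.52 with 0.1 FPKM.

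The bases before the annotated start of Ly6f resemble those before the Ly6c genes, although the Ly6c genes were almost silent in all 6 libraries. They are shown for that contrast. The set of RefSeq promoter windows used here (GRCm38.p6) held Ly6c1, Ly6c2 and Ly6f, but not Ly6a, Ly6d, Ly6e, Ly6i and Ly6k. The Ly6f sequence is the 250 bases upstream of the start (chr15:75268171-75268420, plus strand). For Ly6c1 (chr15:75048839-75049039, minus strand) and Ly6c2 (chr15:75111972-75112202, minus strand) the stretch that aligned to it is given, and capitals mark bases not aligned to an identical base of Ly6f.
Ly6f: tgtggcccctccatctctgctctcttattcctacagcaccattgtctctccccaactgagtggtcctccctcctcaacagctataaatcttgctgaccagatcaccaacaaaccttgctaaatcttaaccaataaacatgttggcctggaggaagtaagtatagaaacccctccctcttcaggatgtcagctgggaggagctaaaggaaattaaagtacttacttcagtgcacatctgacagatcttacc
Ly6c1: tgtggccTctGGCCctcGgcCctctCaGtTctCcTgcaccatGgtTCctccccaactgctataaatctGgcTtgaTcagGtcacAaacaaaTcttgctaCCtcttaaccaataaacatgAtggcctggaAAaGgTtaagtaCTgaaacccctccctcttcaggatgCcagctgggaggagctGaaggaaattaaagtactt
Ly6c2: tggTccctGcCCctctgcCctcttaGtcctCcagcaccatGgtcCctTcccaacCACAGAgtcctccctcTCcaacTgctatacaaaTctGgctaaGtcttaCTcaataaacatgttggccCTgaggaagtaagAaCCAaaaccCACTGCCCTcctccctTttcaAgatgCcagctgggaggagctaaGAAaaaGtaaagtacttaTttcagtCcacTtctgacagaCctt

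The aligned upstream stretches matched Ly6f at 75.8% of 223 columns for Ly6c1 and at 71.3% of 254 columns for Ly6c2. Each window, with the 50 bases after the start included, was searched on both strands for GAAANNGAA, a pattern of interferon-response elements, and for TTCNNNGAA, a pattern bound by STAT factors. Neither pattern was found in the windows of Ly6c1, Ly6c2 or Ly6f. Of all 32851 RefSeq promoter windows of the same length, 8.60% held the former and 8.30% the latter. The absence of these letters from the windows says nothing of the factors.

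**Figure D2:**
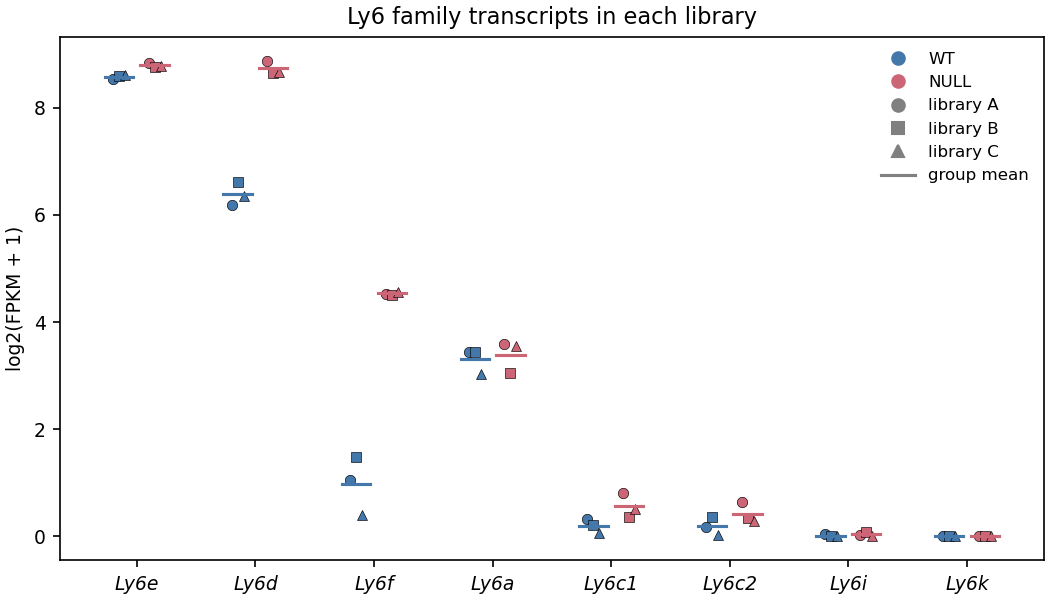
Level of each member as log2(FPKM + 1) on the vertical axis, with 1 point per library (blue WT, red NULL, shapes for the letters A, B and C) and a bar at the mean of the log2 values of each group. Ly6d and Ly6f show a wide gap between the genotypes, Ly6e a narrow gap at a high level, Ly6a overlap, and the other members lie near 0.

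Ly6e, known as TSA-1 or Sca-2 on immature thymocytes and as an interferon-inducible factor that limits entry of some viruses, was the member with the highest level. It lies on the plus strand (chr15:74955051-74959905, GRCm38) and ranked 130th of 9916 by mean FPKM. It read 370, 386 and 391 FPKM in WT and 458, 431 and 439 FPKM in NULL. The groups did not overlap, but the step was small, from 382 ± 11.1 to 442 ± 14.0 FPKM (SD, n = 3 each) or 1.16-fold. Its log2 change was 0.21 (SE 0.077) on the deposited scale and 0.34 above the median of all tested genes. Ly6e passed the test as higher in 9 of 16 alternatives. It did not pass with the replicate letter as a block, without the filter on low values, with robust moderation, or without NULL A, NULL C, WT A or WT B. The change itself was positive in all 16, between 0.19 and 0.67.

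Ly6a, the Sca-1 antigen of stem cells and of activated lymphocytes, overlapped between the genotypes. It lies on the minus strand (chr15:74994877-74998031, GRCm38). It read 9.85, 9.88 and 7.22 FPKM in WT and 11.04, 7.24 and 10.7 FPKM in NULL. The pattern did not follow genotype, since WT C and NULL B were low and nearly equal and the other 4 libraries were close together. The log2 change was 0.088 (SE 0.171) and the test did not pass under any of the 16 alternatives. Its sign turned without NULL A (-0.0090) and without WT C (-0.046). Markers of stem cells and early progenitors were low beside it, with 1 of 10 at a mean of at least 1 FPKM, a summed level of 2.28 to 2.74 FPKM in WT and 1.56 to 2.18 FPKM in NULL, and Mecom at 0 throughout.

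Ly6c1 and Ly6c2, which encode the Ly-6C antigen, stayed below 1 FPKM in every library and were not tested. Ly6c1 read 0.249, 0.157 and 0.0455 FPKM in WT and 0.743, 0.290 and 0.427 FPKM in NULL, without overlap. Ly6c2 read 0.130, 0.278 and 0.0234 FPKM in WT and 0.555, 0.263 and 0.223 FPKM in NULL, where WT B lay above NULL B and NULL C. For both genes WT C was lowest and NULL A highest. The deepest library, NULL A, would hold only about 35.3 fragments of Ly6c1, and WT C fewer than 1. With the filter on low values removed, the log2 change of Ly6c1 was 0.36 and that of the sum of both genes 0.49, and neither passed (limma adjusted p = 0.0617 and adjusted p = 0.0816).

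Monocytes are a main source of Ly-6C in marrow, and their markers were also near 0. Of 9 monocyte and macrophage markers found, 1 (Lyz2) averaged 1 FPKM or more, and Cd14 was listed at 0 in every library. Their summed level was 1.09 to 1.29 FPKM in WT and 3.92 to 5.16 FPKM in NULL, mostly from Lyz2 (means 0.413 and 2.85 FPKM) and F13a1 (0.188 and 0.849 FPKM). The single markers did not move together. Ccr2, the chemokine receptor of Ly-6C-high monocytes, had every NULL library below every WT library (means 0.344 and 0.0710 FPKM), and Fcgr1 stayed near 0 (0.0135 and 0.0137 FPKM). The part of these cells in the Ly6c values was not tested. Ly6c1 is also expressed by endothelium. Endothelial markers summed to 12.9 to 14.8 FPKM in WT and 33.8 to 35.7 FPKM in NULL, nearly all of it from Pecam1 and Eng, while Tie1 was at 0 and Cdh5 no higher than 0.0222 FPKM.

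Ly6i, a close relative of Ly6a, was listed at 0.0257 FPKM in WT A, 0.0203 FPKM in NULL A and 0.0609 FPKM in NULL B and at 0 in the other libraries, or about 1 fragment in each library that held any. Ly6k, a distant member known from testis and sperm, was listed at 0 in all 6 libraries, and part of its sequence is shared with Gm17189, as given above. Neither showed a level that could be compared.

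Added together, the 8 members had a higher level in NULL, mainly through Ly6d. Their sum was 476 ± 21.5 FPKM in WT and 902 ± 53.9 FPKM in NULL (SD, n = 3 each), a 1.90-fold ratio. Ly6d made up 80.6% of the difference, Ly6e 14.1% and Ly6f 4.96%. In WT libraries Ly6e supplied 78.0% to 81.6% of the summed level and Ly6d 15.9% to 19.6%. In NULL libraries their shares were close to equal, 47.5% to 49.98% for Ly6e and 46.4% to 48.9% for Ly6d. Ratios of members within a library do not depend on a scaling factor shared by all its genes. Quantile normalization, which does not use such a factor, can change them. Ly6d to Ly6e was 0.195, 0.251 and 0.206 in WT and 1.03, 0.932 and 0.932 in NULL. Ly6f to Ly6a was 0.108, 0.182 and 0.0433 in WT and 1.998, 3.02 and 2.12 in NULL. Both ratios separated the genotypes without overlap.

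**Figure D3:**
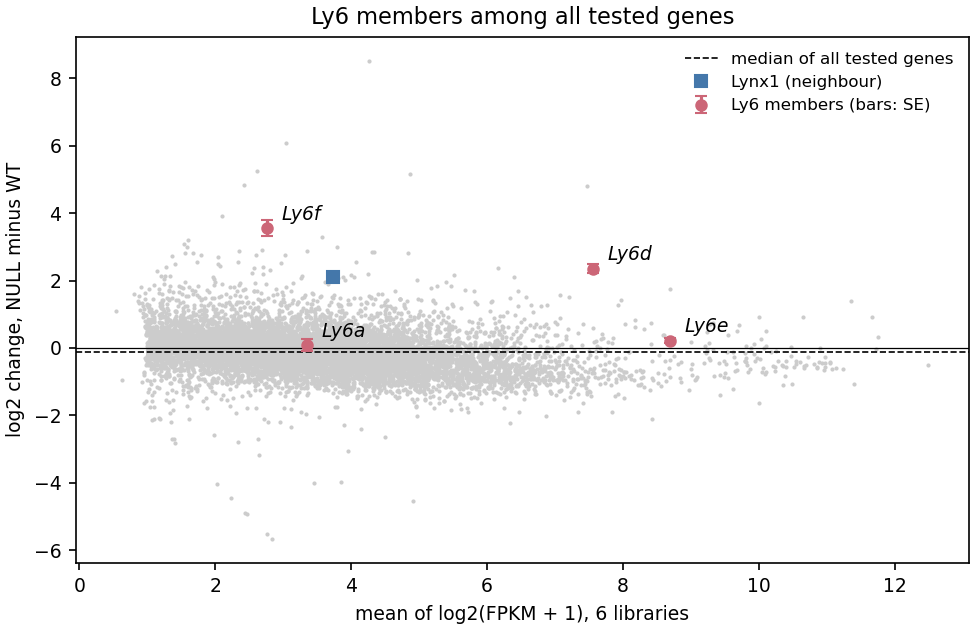
Each grey point is 1 of 9916 tested genes, with the mean log2(FPKM + 1) of 6 libraries on the horizontal axis and the log2 change (NULL minus WT) on the vertical axis. Ly6f (3.56) and Ly6d (2.35) lie at the upper edge of the cloud at their levels, Ly6e (0.21) and Ly6a (0.088) close to 0, and the neighbour Lynx1 at 2.11.

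All 8 members lie on chromosome 15 within 510.2 kb. Within 500 kb of the outermost members the annotation holds 57 other genes, of which 22 had a row in the table. Of these 9 were listed at 0 in every library, and 6 reached a mean of 1 FPKM. Ly6g, the granulocyte antigen gene between Ly6c2 and Ly6f, was not found among the symbols of the table and is not analysed here.

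The nearest tested neighbour of Ly6d, Lynx1, was higher in NULL as well. Lynx1 encodes a GPI-anchored relative of the Ly6 proteins that modulates nicotinic acetylcholine receptors, and it lies 9.0 kb from Ly6d on the same strand (chr15:74747852-74753046, GRCm38). It read 5.87, 7.02 and 3.72 FPKM in WT and 26.9, 26.6 and 26.3 FPKM in NULL. Every NULL library exceeded every WT library, and WT C was again lowest. The mean went from 5.54 ± 1.67 to 26.6 ± 0.321 FPKM (SD, n = 3 each), with a log2 change of 2.11 (SE 0.174, limma adjusted p = 5.17e-05). The neighbouring Slurp2 was not found in the table, and the sources used here do not say how reads crossing from one gene into the other were assigned.

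The other expressed neighbours moved less than Lynx1. Of the 6 tested neighbours, Lynx1 included, 3 passed as higher and 0 as lower, beside 23.3% and 42.0% of all tested genes. Them6, a thioesterase superfamily gene, went from 6.37 ± 0.624 to 8.86 ± 0.897 FPKM (limma adjusted p = 0.00569). The zinc-finger gene Zc3h3 went from 1.66 ± 0.210 to 2.36 ± 0.2999 FPKM (limma adjusted p = 0.0175), a call lost without NULL A, NULL B or WT A and after quantile normalization. Jrk (2.73 ± 0.0726 and 3.22 ± 0.299 FPKM), Zfp41 (4.76 ± 0.437 and 4.87 ± 0.393 FPKM) and the mitochondrial topoisomerase gene Top1mt (1.15 ± 0.395 and 0.913 ± 0.193 FPKM) did not pass. Between Ly6d and Ly6f lie Ly6e, which differed by 1.16-fold, Ly6a, whose groups overlapped, and Ly6k, Ly6i, Ly6c1 and Ly6c2, which stayed below 1 FPKM in every library (Ly6c1 without overlap between the genotypes). The nearest tested gene to Ly6f was Ly6a, at a distance of 270.4 kb.

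**Figure D4:**
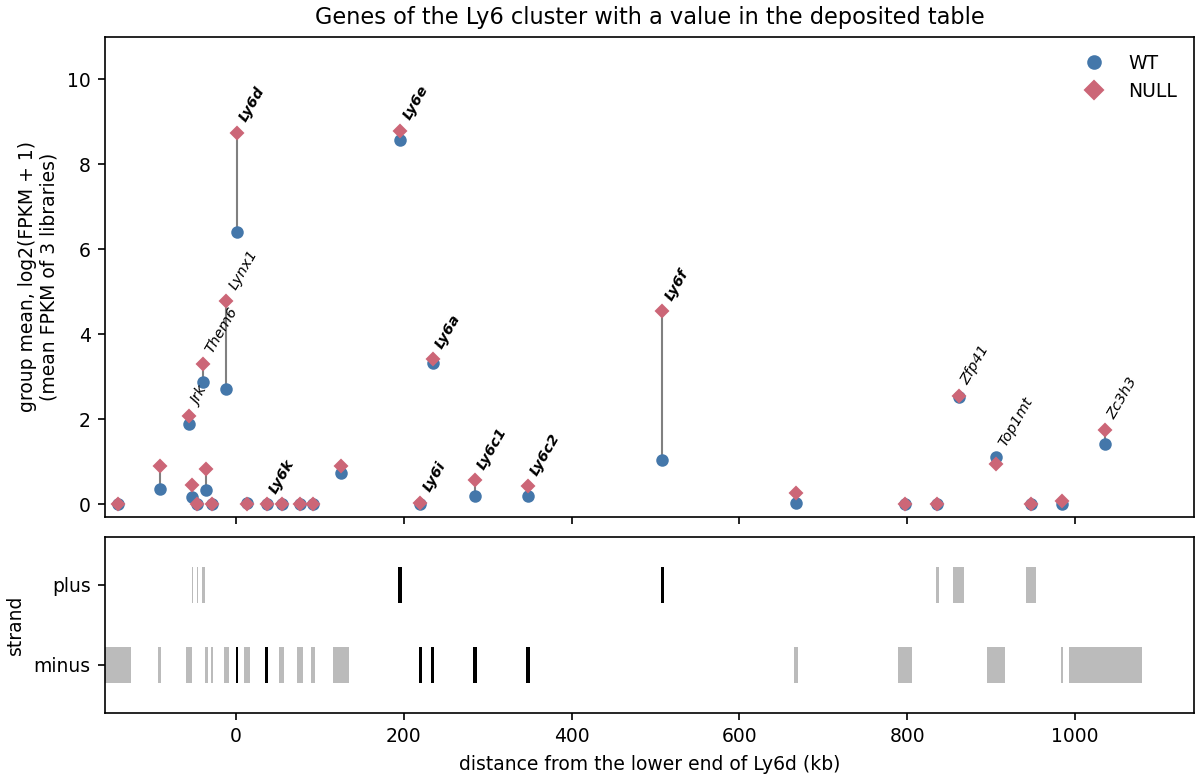
Upper panel: mean FPKM of WT (blue circles) and NULL (red diamonds) as log2(mean FPKM + 1) for every gene of the cluster with a row in the table, placed by distance in kb from the lower end of Ly6d, with members named in bold. Lower panel: extent and strand of each gene, members in black. Large gaps between the genotypes are seen at Lynx1, Ly6d and Ly6f, and many genes between them lie at or near 0.

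Beyond these 8, the wider LU-domain family was nearly silent in these libraries. Of 46 further genes listed, 31 were found, 15 of those were at 0 in every library and 2 reached a mean of 1 FPKM. Both passed as higher in NULL. They were Lynx1 and Pinlyp, a gene on another chromosome for a phospholipase inhibitor with an LU domain, which went from 1.19 ± 0.779 to 5.65 ± 0.261 FPKM (log2 change 1.66, limma adjusted p = 0.000322). Pinlyp read 0.684, 2.08 and 0.791 FPKM in WT and 5.78, 5.35 and 5.82 FPKM in NULL.

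Of 28 tested genes that make the GPI anchor or transfer it to proteins, 4 passed as higher and 12 as lower (median log2 change -0.16, beside -0.13 for all tested genes). Over all tested genes 23.3% passed as higher and 42.0% as lower, so the share of anchor genes that were lower was near the background. When libraries were set to equal totals after small RNA genes were dropped, these counts turned to 12 higher and 6 lower, so the balance depends on scaling. Pigf, which helps attach the ethanolamine phosphates of the anchor, fell from 15.9 ± 0.595 to 7.28 ± 0.147 FPKM. Piga, a subunit of the enzyme that opens the pathway, fell from 6.01 ± 0.283 to 3.46 ± 0.131 FPKM (limma adjusted p = 1.78e-05 and adjusted p = 0.000112). Only 2 anchor genes passed as higher when NULL B or WT A was left out.

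Of 13 tested genes for other GPI-anchored proteins of blood cells 3 passed as higher and 6 as lower (median -0.18), which is near the same background shares. The ecto-nucleotidase Nt5e (CD73) went from 0.200 ± 0.0626 to 4.31 ± 0.622 FPKM and the ADP-ribosyl cyclase Bst1 (CD157) from 33.1 ± 2.44 to 54.8 ± 3.25 FPKM. The phosphatase Alpl fell from 45.8 ± 3.14 to 19.3 ± 2.76 FPKM and Thy1 from 2.31 ± 0.282 to 0.490 ± 0.132 FPKM. All 4 passed the test, but Nt5e met the minimum only through NULL and Thy1 and Folr4 only through WT, so their direction was set by the filter. Without these 3 genes 2 of 10 passed as higher and 4 as lower (median -0.089). Bst1 and Alpl met the minimum in both genotypes (limma adjusted p = 0.000164 and adjusted p = 6.10e-05).

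Interferon-response genes, the class to which several members belong, passed as higher in 24 of 28 tested cases and as lower in 2 (median 0.86). For all tested genes these shares were 23.3% higher and 42.0% lower (median -0.13). Irf7, Ifi44, Oas1a, Usp18 and Rtp4 reached a mean of 1 FPKM only through NULL, so they could enter the count only as higher. Of the 23 genes with both group means at 1 FPKM or more, 19 passed as higher and 2 as lower (median 0.73). Ly6e, with 0.21, lay below that median and Ly6a, with 0.088, did as well. Trim30a went from 10.4 ± 1.61 to 26.9 ± 2.15 FPKM, Ifi44 from 0.0668 ± 0.0213 to 2.14 ± 0.123 FPKM and Rtp4 from 0.552 ± 0.265 to 3.09 ± 0.145 FPKM. Trim30a, which met the minimum in both genotypes, passed with a limma adjusted p = 6.30e-05. Bst2, which is itself GPI-anchored, fell from 10.6 ± 2.77 to 5.14 ± 0.827 FPKM (limma adjusted p = 0.00251). Whether Ly6e differed from the list was not tested.

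Genes of early B-cell stages, where Ly6d is used as a marker, passed as higher in 25 of 36 tested cases and as lower in 5 (median 0.68). Among all tested genes 23.3% passed as higher and 42.0% as lower (median -0.13). Of the lower genes Btla met the minimum only through WT. Ly6d, with 2.35, lay above the median of the list. The transcription factor gene Spib went from 30.1 ± 3.13 to 99.6 ± 6.90 FPKM (log2 change 1.70, limma adjusted p = 1.58e-05). The receptor Il7r, terminal transferase Dntt and recombinase Rag1 changed by 2.83, 2.36 and 2.05, and Cd22 and Cd2 by -3.998 and -2.28. In WT the order of Ly6f (B above A above C) was shared by 14 of the 36 genes, Il7r, Dntt and Rag1 among them, and by 1931 of 9916 tested genes (19.5%). WT C was the lowest WT library for 41.7% of the list and for 39.7% of all tested genes.

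Genes most like each tested member were sought by Pearson's r of log2(FPKM + 1) over the 6 libraries, among 9209 named genes. For Ly6d these were Inppl1 (r = 0.9995), Pisd-ps2 (0.9989) and Cyth1 (0.9988), and for Ly6f they were Dst (0.9995), Gas7 (0.9995) and Steap4 (0.9994). With a gap between genotypes of this size many genes correlate, and 12.2% of the genes compared had r above 0.95 with Ly6d and 11.8% with Ly6f. For Ly6e the nearest were Adar (0.9992), Ppp6r1 (0.9986) and Rabep2 (0.9984), with 6.45% of genes above 0.95. For Ly6a, which did not separate the genotypes, they were Nkd2 (0.9703), Cdc42se2 (0.9636) and Fbxo3 (0.9522), the only genes above 0.95. The points of each correlation are the same 6 libraries in 2 genotypes, so these values are a description without a test.

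**Figure D5:**
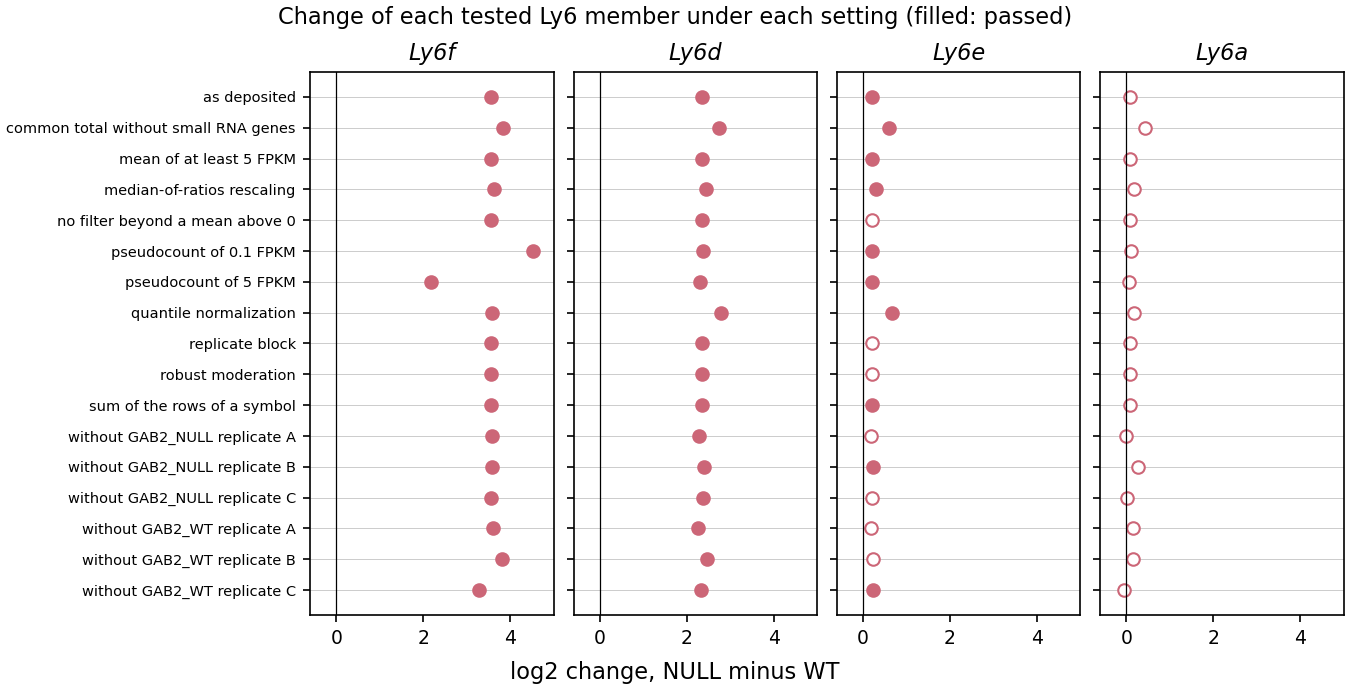
Log2 change (NULL minus WT, horizontal axis) of Ly6f, Ly6d, Ly6e and Ly6a as deposited and under 16 alternatives (rows), filled where limma's adjusted p was below 0.05. Ly6d and Ly6f were filled in every row, Ly6e in 9 of the 16 alternatives, and Ly6a in none. In the rows for a minimum of 5 FPKM, a common total and no WT B, Ly6f met the minimum only through NULL.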

How the data were processed

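Poly(A) RNA of 6 mouse bone marrow samples was sequenced from stranded libraries with paired ends of 100 cycles, per the labels' protocols. The authors deposited FPKM for 23848 rows, and the submitters' processing notes list Bowtie and Cufflinks as tools and mm10 and GRCm38 as builds, with no version. The sources used here do not give the annotation, filters, scaling or handling of multiply mapped reads. The series table and the library tables differed in 0 values. Where a symbol was repeated (256 symbols), its highest row by mean was used. Groups and letters came from the titles.

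log2(FPKM + 1) of the 9916 genes averaging 1 FPKM or more was fitted by genotype with limma 3.58.1 (R 4.3.3), variances being moderated towards a trend. The p-values were two-sided and were adjusted by Benjamini-Hochberg over all these genes (threshold 0.05). The fit was checked on simulated data with independent noise and few changed genes. That check does not cover a contrast in which most genes pass, nor libraries that are technical repeats. The strength of a fold change is understated for weakly expressed genes on this scale. Positions, coding sequences and transcripts came from GENCODE vM21 on GRCm38 (21724 symbols matched by name), with the principal coding transcript of each member aligned in Biopython 1.88. Depth was approximated from the most common step of low FPKM and supports no counting interval. The members and gene lists were chosen with earlier results of these data known. Named genes are every member, Gab2, every expressed neighbour, up to 6 genes with the largest change per list, and the 3 genes most correlated with each tested member. No protein sequence table was used, so the planned grouping by protein identity was replaced by coding-sequence identity of at least 80%. A member joined a group through any such match, so some pairs within the group lie lower. Ly6f reached 80% only with Ly6a (84.6%) and matched Ly6c1, Ly6c2 and Ly6i at 77.4%, 76.6% and 79.4%.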

Additional observations from a re-analysis of the deposited data

How the results depend on the processing

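The 16 alternatives were other pseudocounts, filters and scalings, a replicate block, robust moderation, summed rows and leaving out each library. Ly6d and Ly6f passed as higher in NULL in all of them. In each, 2 or 3 members passed as higher and 0 as lower. All 16 reuse the same 6 libraries, and the members were chosen with these values known, so these passes are a description and not support. With a minimum of 5 FPKM, with a common total without small RNA genes, and without WT B, Ly6f met the minimum only through NULL. In those settings it could pass only as higher, so its passing there carries no weight. The Ly6e change of 0.211 missed the threshold with the replicate block (adjusted p = 0.138), with robust moderation (0.211, adjusted p = 0.0514) and when no filter was set (0.211, adjusted p = 0.0516). Leaving out single libraries gave 0.186 to 0.230 for Ly6e (adjusted p up to 0.146) and -0.046 to 0.264 for Ly6a. Reversed signs of neighbours were -0.0010 for Zfp41 without NULL A or NULL C (range -0.017 to 0.087 over single libraries left out), and 0.042 for Top1mt under a common total. Adding Ly6a, Ly6c1, Ly6c2, Ly6f and Ly6i, chosen after seeing the data, gave a log2 change of 1.59 for the sum against 3.56 for Ly6f alone. The planned grouping by protein identity was not run. A common total without small RNA genes moved the counts to 4506 higher and 2045 lower of all genes (2311 and 4168 as deposited), 12 higher and 6 lower for anchor synthesis, 5 higher for other anchored proteins, 1 lower for interferon genes and 5 higher for genes around the cluster. With a minimum of 5 FPKM 7067 genes were tested, of which 1364 passed as higher and 3495 as lower. That minimum left 1 LU-domain gene higher, and 1 anchor synthesis gene higher and 7 lower. It also left 13 interferon genes higher and 1 lower, and 2 cluster neighbours higher. Without a filter 7 cluster neighbours passed as higher. Interferon genes lower numbered 1, against 2, after median-of-ratios rescaling, without a filter and with the replicate block. Leaving out single libraries left 1 to 2 of them and 2 to 4 anchor genes higher. The correlation of deviations between same-lettered libraries was 0.073, 0.355 and 0.133 for A, B and C, which does not decide whether the letters mark pairs. The labels do not say what the letters share, so the replicate block was kept as an alternative. The block lowered all calls to 2050 higher and 3794 lower. FPKM without counts limit what can be said of Ly6c1, Ly6c2, Ly6i and WT levels of Ly6f, and the division between the near-identical Ly6c1 and Ly6c2 is uncertain.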
